A study of Homo sapiens with 9 samples.

Results

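The 43 genes described here encode proteins of the kinetochore and of the spindle assembly checkpoint. They were chosen by gene name, as the listed CENP genes, *HJURP*, subunits of the NDC80, MIS12, KNL1 and SKA complexes, and checkpoint and corona genes, out of 60966 genes in the deposited tables. All 43 were present and all 43 were among the 14985 genes with at least 1 FPKM (fragments per kilobase of transcript, scaled to the fragments of the library) in at least 3 samples, which were the genes tested. The data are poly(A)-selected RNA-seq of H1299, an established lung cancer cell line of human origin, in 9 samples. Of these, 3 were transfected with a Scramble siRNA as control, 3 with Si-FIBP#1, and another 3 received Si-FIBP#2. Both are siRNAs against *FIBP*, which encodes a protein that binds acidic fibroblast growth factor. The comparisons asked how transcript levels differ after *FIBP* depletion. The control and depleted cells were of the same line, with no other allele or drug named in the sample labels. Depletion was transient, in whole cultures of 1 line, and no rescue with a resistant *FIBP* was among these samples.

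The kinetochore is the protein assembly that joins each chromosome to spindle microtubules at cell division. It is built on centromeric chromatin marked by the histone variant CENP-A. A group of CENP proteins, the constitutive centromere-associated network, sits on this chromatin, and the outer kinetochore, made of the KNL1, MIS12 and NDC80 complexes, binds the microtubules. At kinetochores without a proper attachment, the kinase TTK (MPS1), BUB1, BUB1B (BubR1), BUB3, MAD1 and MAD2 generate the checkpoint signal that delays anaphase. Many of these genes are transcribed in G2 and mitosis, and promoters of such genes often hold a cell cycle genes homology region (CHR) and CCAAT boxes.

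The 9 libraries held an estimated 20200000 to 23800000 fragments each, and 13894 to 14715 genes reached 1 FPKM in a library. Correlations of log2(FPKM + 1) over the tested genes were 0.983 to 0.988 within groups and 0.956 to 0.983 between groups. *FIBP* measured 88.4, 79.5 and 77.7 FPKM in Scramble, 7.49, 7.77 and 4.3 after Si-FIBP#1, and 7.13, 5.92 and 8.21 after Si-FIBP#2, so it fell by 3.5 ± 0.18 (SE, log2) after Si-FIBP#1 (limma adjusted p = 9.4e-07) and by 3.36 ± 0.18 after Si-FIBP#2 (limma adjusted p = 1.4e-06). Of the H1299 and epithelial markers, *KRT19* was near 0 (at most 0.29 FPKM), and *VIM*, *KRT8* and *KRT18* were present and fell with both siRNAs. *VIM* measured 3151 to 3369 FPKM in Scramble, 2168 to 2455 FPKM after Si-FIBP#1 and 1592 to 2220 FPKM after Si-FIBP#2 (log2 fold changes -0.49 and -0.72, limma adjusted p = 0.00512 and 0.000572). *KRT8* measured 104 to 108 FPKM, 71.2 to 76.6 FPKM and 67.2 to 84.2 FPKM in the same order (-0.53 and -0.49, limma adjusted p = 0.000335 and 0.000542). *KRT18* measured 467 to 483 FPKM, 193 to 226 FPKM and 143 to 198 FPKM (-1.19 and -1.45, limma adjusted p = 2.01e-05 and 6.88e-06). These markers thus fell in the same samples as many of the genes described below, and their part in the results was not tested. *NKX2-1*, a marker of lung adenocarcinoma, did not exceed 0.17 FPKM. The leukocyte, T cell, endothelial and stromal markers *PTPRC*, *CD3E*, *PECAM1*, *CDH5* and *LUM* did not exceed 0.27 FPKM and *DCN* did not exceed 1.42 FPKM. *CD68*, a lysosomal protein of macrophages and of some other cells, measured 31 to 33 FPKM in Scramble, 37.6 to 40.3 FPKM after Si-FIBP#1 and 50.9 to 67 FPKM after Si-FIBP#2. It rose with both siRNAs (log2 fold changes 0.27 and 0.90, limma adjusted p = 0.0387 and 5.54e-05) and differed between them by 0.63 (limma adjusted p = 0.00284).

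Transcripts of the kinetochore and checkpoint genes were lower after *FIBP* depletion with both siRNAs. In the test across all genes (limma on log2(FPKM + 1), Benjamini-Hochberg adjustment), a gene is called here if its adjusted p is below 0.05 and its change is over 2-fold. With Si-FIBP#1, 22 of 43 members were called lower, where 3.11% of all tested genes were, and 0 were called higher, where 2.55% were. With Si-FIBP#2, 17 of 43 were called lower, where 2.13% of all tested genes were, and 0 were called higher, where 2.92% were. By the adjusted p alone, 39 members fell after Si-FIBP#1 (19.9% of all tested genes) and 38 after Si-FIBP#2 (17.7%). In the other direction, 0 members passed after Si-FIBP#1 (27.8% of all tested genes), and 1 member, *CENPP*, rose after Si-FIBP#2 (31.1%). At an unadjusted p below 0.05, *CENPP* was the 1 member higher in either comparison, and 0 members were over 2-fold higher. The median log2 fold change over the members was -1.07 after Si-FIBP#1 and -0.87 after Si-FIBP#2, where the median over all tested genes was 0.073 and 0.11. A median-ratio scaling brought the median of all genes to 0.0037 and 0.0047 and that of the members to -1.15 and -0.99, so the members lay lower against either base. In 39 members all 6 depleted samples lay below all 3 Scramble samples, which held for 16.5% of all tested genes, and the 4 exceptions were *CENPC*, *CENPP*, *CENPS* and *CENPT*. The 2 siRNA comparisons share the Scramble samples, so they are not independent of each other.

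**Figure D1:**
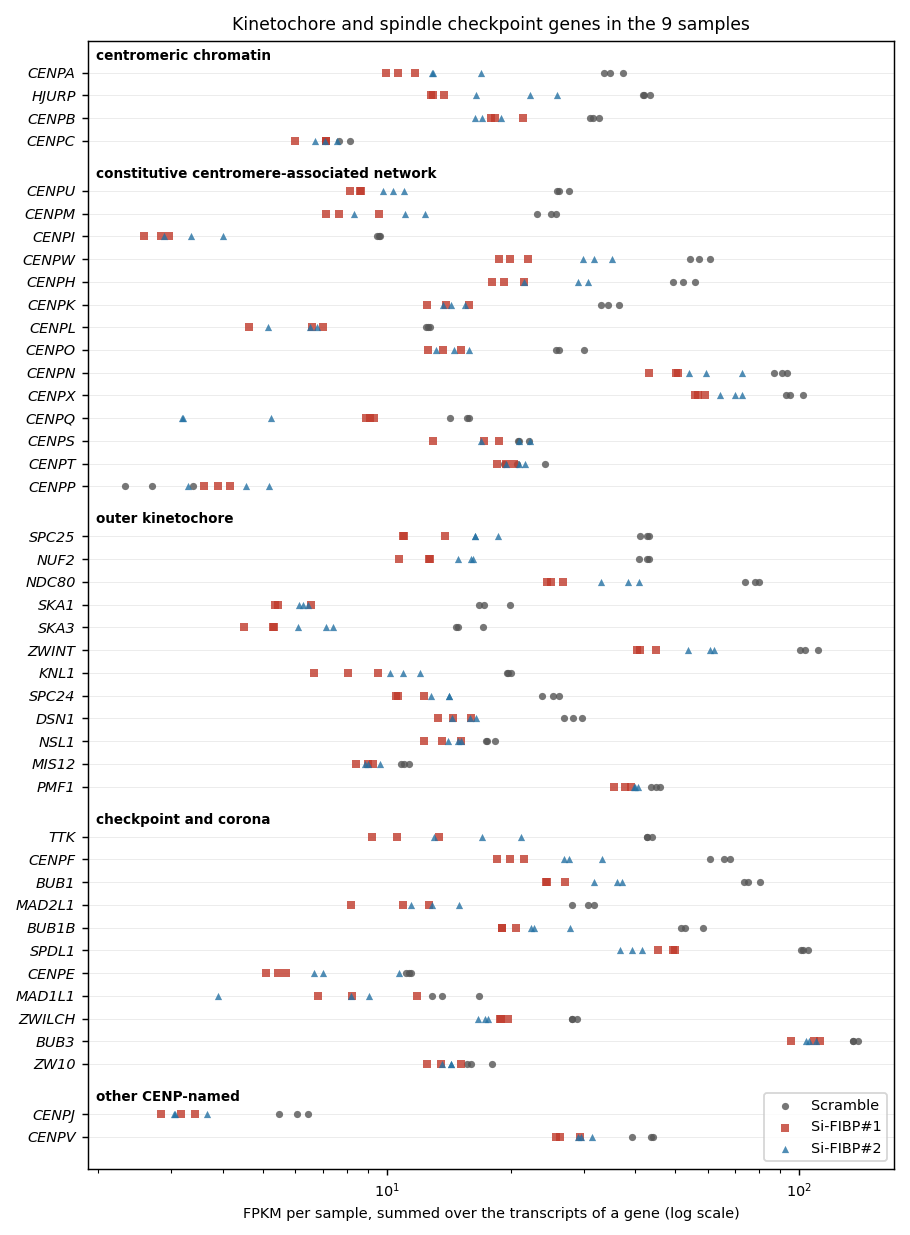
FPKM of each of the 43 genes in each of the 9 samples on a log scale (grey circles, Scramble; red squares, Si-FIBP#1; blue triangles, Si-FIBP#2), ordered by layer of the kinetochore. The grey circles lie to the right of all other points in 39 genes, and *CENPC*, *CENPP*, *CENPS* and *CENPT* are the exceptions.

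In Scramble, 11 members measured at least 50 FPKM, 28 measured 10 to 50 FPKM and 4 measured less than 10 FPKM. The highest was *BUB3* at 136 ± 2.3 FPKM (mean ± SD, n = 3) and the lowest *CENPP* at 2.8 ± 0.542 FPKM. Called lower with both siRNAs were 16 members, and another 6 were called after Si-FIBP#1 alone, 1 (*CENPQ*) after Si-FIBP#2 alone and 20 with neither. Of all tested genes, 3.11% were called lower after Si-FIBP#1 and 2.13% after Si-FIBP#2. How many of them were called with both was not counted, and both comparisons share the Scramble samples. Just inside the 2-fold limit lay *SPDL1* after Si-FIBP#1 (log2 fold change -1.07) and *NDC80* after Si-FIBP#2 (-1.03). Just outside lay *CENPL* after Si-FIBP#1 (-0.96) and *HJURP* after Si-FIBP#2 (-0.97), while *MAD1L1* after Si-FIBP#2 stood at -1.0 and fell short of it before rounding. These positions depend on the pseudocount, since with 0.1 in place of 1 *CENPL* was at -1.06 after Si-FIBP#1 and *MAD1L1* at -1.1 after Si-FIBP#2, and 24 and 20 members were called lower. Markers of proliferating cells moved the same way. *MKI67* measured 52.4, 50.3 and 49 FPKM in Scramble, 16.7, 16.1 and 18.9 after Si-FIBP#1, and 30.7, 21.8 and 24.2 after Si-FIBP#2, *PCNA* averaged 184 FPKM in Scramble against 67.5 and 80.6 FPKM, and *TOP2A* and *MCM2* fell by 1.5 and 1.43 on the log2 scale after Si-FIBP#1 and by 1.31 and 1.4 after Si-FIBP#2. All 4 of these markers fell with both siRNAs. In bulk samples, fewer cells in division and less RNA per cell cannot be told apart, and the part of proliferation in the members' change was not tested.

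**Figure D2:**
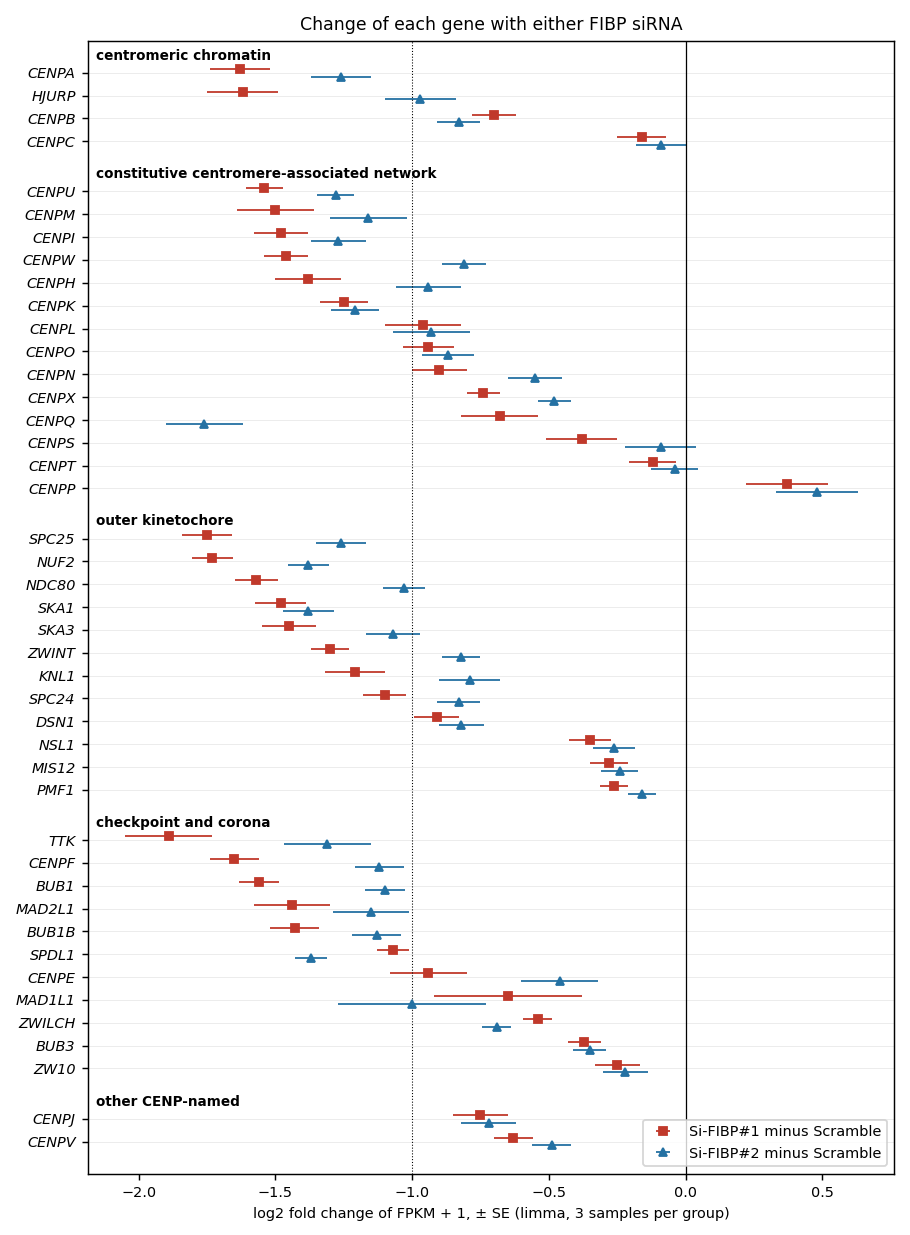
Log2 fold change of FPKM + 1 against Scramble for each gene (red squares, Si-FIBP#1; blue triangles, Si-FIBP#2; bars, SE from limma with 3 samples per group); the dotted line marks a 2-fold fall. All genes but *CENPP* lie left of 0, and the MIS12 complex genes *MIS12*, *NSL1* and *PMF1* lie near 0 while *SPC25*, *NUF2* and *NDC80* lie left of the dotted line.

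Sequence motifs at the transcription starts of the members were counted. RefSeq windows (GRCh38.p14) from 250 bases before to 50 bases after the annotated start were at hand for 36 of the 43 members. *CENPH*, *CENPJ*, *CENPL*, *CENPM*, *KNL1*, *BUB3* and *TTK* had none. The motifs searched on both strands were the CHR (TTTGAA or TTCGAA), the CCAAT box (CCAAT) and E2F sites (TTTCGCGC, TTTGGCGC, TTCCCGCC or TTTCCCGC, of which the last 2 can overlap). A CHR was found in 18 of the 36 windows (50%), against 16.6% of all 27305 windows and 10.9% of the 10204 windows of tested genes. A CCAAT box was found in 20 of 36 (55.6%), against 35.7% of all windows and 37.2% of those of tested genes, and an E2F site in 9 of 36 (25%), against 5.07% and 8.69%. Both a CHR and a CCAAT box were present in 12 of 36 (33.3%), against 6.58% of all windows. From 100 bases before the start to the end of the window, a CHR was present in 16 of 36 members (44.4%) and in 7.43% of all windows. The 120 bases around the start are shown for 6 members called lower with both siRNAs that held a CHR close to the start and for 2 members that were not called and had no CHR in the window. These 8 were picked after their values were known, and capitals mark the CHR on either strand.
CENPA (chr2:26785976-26786095, plus strand): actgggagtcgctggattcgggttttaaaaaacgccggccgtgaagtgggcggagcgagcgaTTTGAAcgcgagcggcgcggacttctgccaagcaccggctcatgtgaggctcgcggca
NDC80 (chr18:2571477-2571596, plus strand): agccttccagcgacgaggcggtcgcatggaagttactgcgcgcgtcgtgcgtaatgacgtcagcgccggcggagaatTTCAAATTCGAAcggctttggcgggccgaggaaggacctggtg
SPC25 (chr2:168890391-168890510, minus strand): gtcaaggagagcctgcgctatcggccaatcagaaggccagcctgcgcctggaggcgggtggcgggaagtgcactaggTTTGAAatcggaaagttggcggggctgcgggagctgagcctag
SKA3 (chr13:21176513-21176632, minus strand): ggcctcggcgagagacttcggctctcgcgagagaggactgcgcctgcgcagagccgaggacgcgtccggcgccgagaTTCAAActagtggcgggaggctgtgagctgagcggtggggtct
BUB1 (chr2:110678024-110678143, minus strand): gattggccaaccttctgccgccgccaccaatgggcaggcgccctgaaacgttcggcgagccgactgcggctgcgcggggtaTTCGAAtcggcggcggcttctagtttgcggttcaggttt
BUB1B (chr15:40160989-40161108, plus strand): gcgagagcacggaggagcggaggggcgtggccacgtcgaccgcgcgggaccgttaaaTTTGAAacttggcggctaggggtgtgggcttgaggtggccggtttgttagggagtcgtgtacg
CENPT (chr16:67847654-67847773, minus strand): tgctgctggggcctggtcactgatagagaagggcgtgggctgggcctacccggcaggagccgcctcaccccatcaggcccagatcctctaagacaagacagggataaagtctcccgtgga
PMF1 (chr1:156212927-156213046, plus strand): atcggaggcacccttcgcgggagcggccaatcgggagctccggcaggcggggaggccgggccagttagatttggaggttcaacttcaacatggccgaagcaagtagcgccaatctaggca

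In these windows the first base of the CHR lay 18 bases before the start of *CENPA*, 23 before that of *BUB1B*, 3 before those of *SPC25* and *SKA3* and 1 after that of *BUB1*. *NDC80* held a pair of adjoining CHRs, beginning 3 bases before and 3 bases after the start. Members with a CHR had a median log2 fold change of -1.46 after Si-FIBP#1 and -1.09 after Si-FIBP#2, and members without one -0.66 and -0.59 (18 genes each). Over the tested genes the medians with and without a CHR were -0.02 and 0.07 after Si-FIBP#1 and 0.02 and 0.10 after Si-FIBP#2. The members with a CHR ranged from -1.75 to -0.16 after Si-FIBP#1, *CENPC* and *ZW10* being the smallest changes. Their CHRs lay 90 and 224 bases before the start, while that of *HJURP*, which fell by 1.62, lay 111 bases before it. *CENPN* and *CENPO*, also with a CHR and not called after Si-FIBP#1, held it 3 and 36 bases after the start. A relation of distance to change was not tested. After Si-FIBP#1, 14 of the 18 members with a CHR were called lower and 4 of the 18 without one (*CENPI*, *CENPK*, *CENPU* and *SPC24*). After Si-FIBP#2 these counts were 11 and 4 (*CENPI*, *CENPK*, *CENPQ* and *CENPU* without a CHR). Of all tested genes, 3.11% and 2.13% were called lower with the 2 siRNAs, and their shares by CHR were not computed. The *CENPI* window begins at chrX:101100808, inside the gene, which begins at 101098218 in GENCODE 29, so that earlier start was not searched. Some windows with a CHR, such as those of *CENPA* and *NUF2*, also lie inside the gene as listed there. For the CCAAT box the members' medians were -1.18 with it and -0.92 without it after Si-FIBP#1, and -0.90 and -0.85 likewise after Si-FIBP#2. For E2F sites the members' medians were -0.90 with and -1.07 without after Si-FIBP#1, and -0.83 and -0.87 after Si-FIBP#2. Over the tested genes the E2F medians lay in the opposite order, at -0.06 with and 0.07 without after Si-FIBP#1, and at 0.00 and 0.10 after Si-FIBP#2. A match of these letters is a description of the sequence and not a measured binding site.

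**Figure D3:**
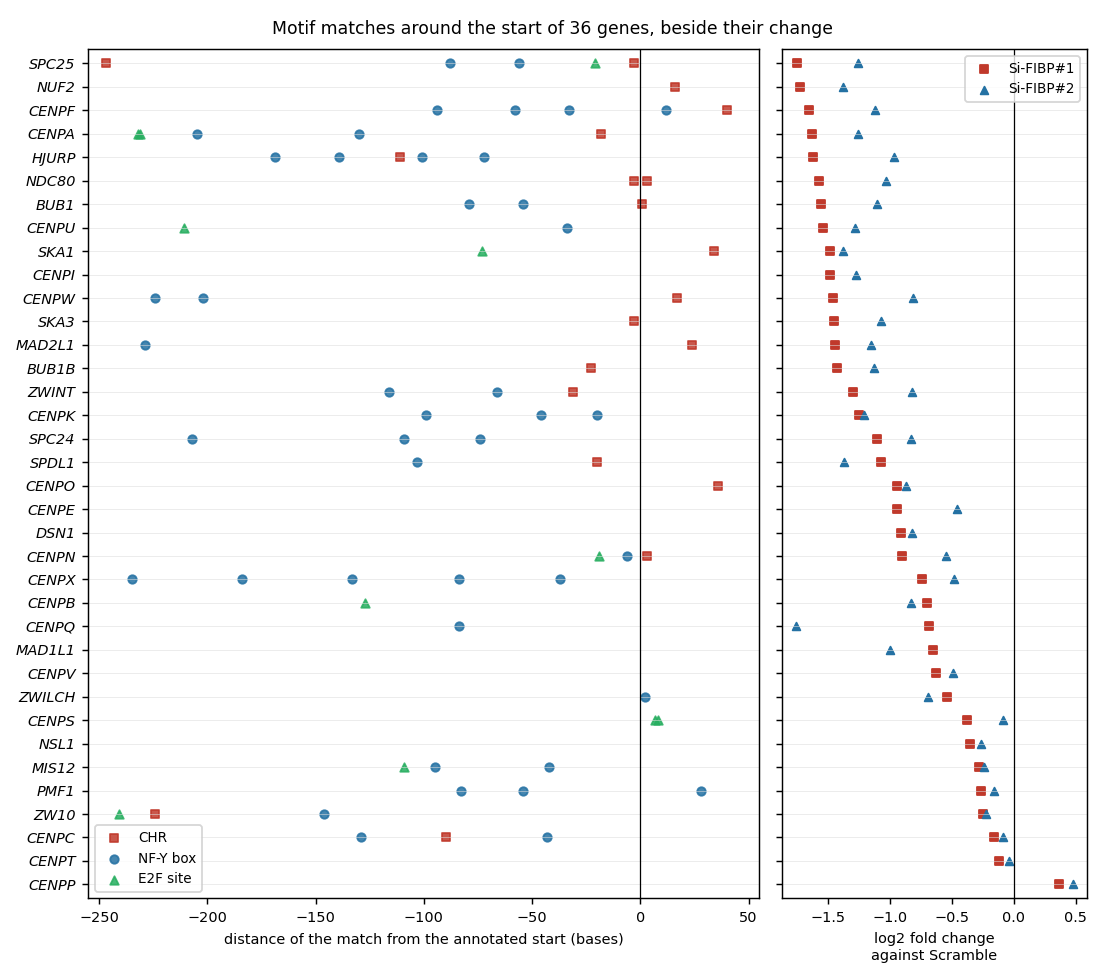
Left, distance in bases from the annotated start of each match to the CHR (red squares), the CCAAT motif, labelled NF-Y box after the factor that binds it (blue circles), and E2F sites (green triangles) in 36 genes ordered by their change after Si-FIBP#1. Right, log2 fold change against Scramble of the same genes (red squares, Si-FIBP#1; blue triangles, Si-FIBP#2), where 14 of the 18 genes with a CHR and 4 of the 18 without one were called lower after Si-FIBP#1. Of all tested genes, 3.11% were called lower after Si-FIBP#1.

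In the centromeric chromatin layer, 2 of 4 genes were called lower after Si-FIBP#1 (3.11% of all tested genes) and 1 after Si-FIBP#2 (2.13%). The median log2 fold changes were -1.16 and -0.90. *CENPA*, the histone H3 variant that marks the centromere, measured 33.7, 37.4 and 34.8 FPKM in Scramble, 10.7, 9.97 and 11.7 after Si-FIBP#1, and 16.9, 12.9 and 13 after Si-FIBP#2. Its groups did not overlap. It fell by 1.63 ± 0.11 (SE, log2) after Si-FIBP#1 (limma adjusted p = 3.1e-06) and by 1.26 ± 0.11 after Si-FIBP#2 (limma adjusted p = 1.6e-05). *HJURP*, the chaperone that deposits CENP-A, measured 41.9, 42 and 43.6 FPKM in Scramble, 13, 12.8 and 13.8 after Si-FIBP#1, and 25.9, 16.5 and 22.2 after Si-FIBP#2. Both depleted groups were far below Scramble, and Si-FIBP#2 replicate 2 was the lowest of its group. The fall was 1.62 on the log2 scale after Si-FIBP#1 and 0.97 after Si-FIBP#2 (limma adjusted p = 1e-05 and 0.00025), the latter just short of 2-fold. *CENPB*, which binds a motif in alpha-satellite DNA, fell by 0.70 and 0.83 on the log2 scale and was not called. With Ensembl models alone, which for *CENPB* means ENST00000379751, it fell by 2.23 and 1.89 (limma adjusted p = 0.00979 and 0.0209), past 2-fold with both siRNAs. That model ran from 8.21 to 22.58 FPKM in Scramble, where the sum of all *CENPB* models ran from 31.06 to 32.68 FPKM. Tested among transcripts, it did not pass after Si-FIBP#2 (limma adjusted p = 0.0579). *CENPC*, the linker between CENP-A chromatin and the outer kinetochore, measured 7.63 ± 0.516 FPKM in Scramble, 6.75 ± 0.652 FPKM after Si-FIBP#1 and 7.12 ± 0.44 FPKM after Si-FIBP#2 (SD, n = 3). Its samples overlapped between groups and it did not pass (limma adjusted p = 0.18 and 0.45). The 95% interval of its log2 fold change was -0.36 to 0.05 after Si-FIBP#1 and -0.29 to 0.11 after Si-FIBP#2. These intervals hold for the sum of all models, since with Ensembl models alone *CENPC* stood at -0.27 and -0.39 (limma adjusted p = 0.302 and 0.141), and after Si-FIBP#2 at -0.20 under the median-ratio scaling. Without Si-FIBP#1 replicate 2 it stood at -0.08 after Si-FIBP#1, and without Scramble replicate 1 or Si-FIBP#2 replicate 1 at -0.05 after Si-FIBP#2, and it passed in none of these.

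Of the 14 genes of the constitutive centromere-associated network, 6 were called lower after Si-FIBP#1 (3.11% of all tested genes) and 5 after Si-FIBP#2 (2.13%). The median log2 fold changes were -0.95 and -0.90. The group holding *CENPH*, *CENPI*, *CENPK* and *CENPM*, whose proteins form 1 subcomplex, contained genes called with both siRNAs. *CENPI* measured 9.6, 9.61 and 9.48 FPKM in Scramble, 2.58, 2.84 and 2.97 after Si-FIBP#1, and 4.0, 3.35 and 2.88 after Si-FIBP#2. *CENPK* measured 36.6, 33.1 and 34.5 FPKM in Scramble, 12.5, 13.9 and 15.8 after Si-FIBP#1, and 15.5, 13.7 and 14.3 after Si-FIBP#2. *CENPM* measured 25.7, 23.1 and 25 FPKM in Scramble, 7.66, 9.58 and 7.11 after Si-FIBP#1, and 12.4, 8.32 and 11.1 after Si-FIBP#2. In each of these 3 genes the depleted samples lay below all Scramble samples while the Si-FIBP#1 and Si-FIBP#2 samples overlapped. *CENPI* fell by 1.48 ± 0.1 (SE, log2) after Si-FIBP#1 (limma adjusted p = 4.8e-06) and by 1.27 ± 0.1 after Si-FIBP#2 (limma adjusted p = 1.4e-05). *CENPK* fell by 1.25 ± 0.088 (SE, log2) after Si-FIBP#1 (limma adjusted p = 4.8e-06) and by 1.21 ± 0.088 after Si-FIBP#2 (limma adjusted p = 6.9e-06). *CENPM* fell by 1.5 ± 0.14 (SE, log2) after Si-FIBP#1 (limma adjusted p = 2.7e-05) and by 1.16 ± 0.14 after Si-FIBP#2 (limma adjusted p = 0.00014). *CENPH* measured 49.4, 52.2 and 55.8 FPKM in Scramble, 19.3, 18 and 21.5 after Si-FIBP#1, and 29, 21.5 and 30.7 after Si-FIBP#2, and it was called after Si-FIBP#1 alone (log2 fold change -1.38) as its fall after Si-FIBP#2 was 0.94.

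*CENPU*, *CENPO*, *CENPP* and *CENPQ* encode proteins of another subcomplex. *CENPU* measured 27.7, 25.9 and 26.2 FPKM in Scramble, 8.63, 8.15 and 8.65 after Si-FIBP#1, and 10.3, 11 and 9.78 after Si-FIBP#2. The 3 groups of *CENPU* were fully separate. It fell by 1.54 ± 0.067 (SE, log2) after Si-FIBP#1 (limma adjusted p = 4.4e-07) and by 1.28 ± 0.067 after Si-FIBP#2 (limma adjusted p = 1.3e-06). *CENPO* fell by 0.94 and 0.87 on the log2 scale and was not called. *CENPQ* measured 14.2, 15.6 and 15.8 FPKM in Scramble, 8.92, 9.33 and 9.12 after Si-FIBP#1, and 3.2, 5.24 and 3.19 after Si-FIBP#2, which put the Si-FIBP#2 samples far below both other groups. It fell to 60% of Scramble after Si-FIBP#1 and to 25.5% after Si-FIBP#2, a log2 fold change of -0.68 and -1.76 (limma adjusted p = 0.00335 and 1.2e-05). *CENPQ* had the largest fall of any member after Si-FIBP#2 by the sum of all models, while *CENPB* stood at -1.89 with Ensembl models alone. *CENPP* measured 2.32, 3.39 and 2.7 FPKM in Scramble, 3.89, 4.18 and 3.61 after Si-FIBP#1, and 3.3, 5.17 and 4.57 after Si-FIBP#2. It was the member with the lowest level and the only one whose means were above that of Scramble with both siRNAs. Its log2 fold change was 0.37 ± 0.15 (SE) after Si-FIBP#1, which did not pass (limma adjusted p = 0.069), and 0.48 ± 0.15 after Si-FIBP#2 (limma adjusted p = 0.0243), which did not pass under the median-ratio scaling or with no filter (limma adjusted p = 0.0592 and 0.0709). The difference after Si-FIBP#1 passed with only the groups compared in the fit, with Ensembl models alone (0.55), and without Scramble replicate 2 or Si-FIBP#2 replicate 1 (limma adjusted p from 0.0354 to 0.0432). Scramble replicate 2 lay within the range of the Si-FIBP#2 samples, and without Scramble replicate 1 or 3 or Si-FIBP#2 replicate 2 or 3 the rise after Si-FIBP#2 did not pass (limma adjusted p from 0.0635 to 0.0819). Exons of *CENPP* overlap 3719 nt of *IPPK* on the opposite strand, and whether reads were assigned by strand is not given in the sources used here. Exons of 15 members overlap another gene that averaged at least 1 FPKM, 12 of them on the opposite strand, among them *CENPO* with *ADCY3* (1488 nt), *CENPT* with *TSNAXIP1* (596 nt) and *CENPN* with *CMC2* (457 nt).

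The other genes of the network were mostly lower by smaller amounts. *CENPN* and *CENPL*, which form a subcomplex that contacts the CENP-A nucleosome, fell by 0.90 and 0.96 on the log2 scale after Si-FIBP#1 and by 0.55 and 0.93 after Si-FIBP#2. *CENPN* measured 86.8, 90.8 and 93.3 FPKM in Scramble, 43.1, 50.9 and 50.1 after Si-FIBP#1, and 72.6, 53.9 and 59.4 after Si-FIBP#2. The Scramble samples lay above all others, and Si-FIBP#2 replicate 1 came nearest to them. In that sample a *CENPN* model of 329 nt, ENST00000569461, was listed at 20.97 FPKM, against 3.51 and 4.93 FPKM in the other Si-FIBP#2 samples, and models under 500 nt made up 23.3% of its FPKM in Scramble. Without such models *CENPN* fell by 0.92 and 0.42 (limma adjusted p = 6.4e-07 and 0.00019). The siRNAs then differed by 0.50 (limma adjusted p = 0.00048) in place of 0.35 (limma adjusted p = 0.048), an alternative chosen after the data were seen. The *CENPN* model ENST00000305850, of 2481 nt, went the other way and was not called. It measured 3.02 to 4.1 FPKM in Scramble, 5.16 to 7.13 FPKM after Si-FIBP#1 and 7.61 to 7.82 FPKM after Si-FIBP#2. *CENPT*, *CENPW*, *CENPS* and *CENPX* encode histone-fold proteins that act together at the centromere, and their log2 fold changes after Si-FIBP#1 ran from -1.46 to -0.12. *CENPW* measured 54.5, 57 and 60.6 FPKM in Scramble, 18.7, 22 and 19.9 after Si-FIBP#1, and 35.2, 31.7 and 29.9 after Si-FIBP#2. The fall was 1.46 on the log2 scale after Si-FIBP#1 and 0.81 after Si-FIBP#2 (limma adjusted p = 1.2e-06 and 4.1e-05). *CENPX* measured 102, 95.1 and 92.7 FPKM in Scramble, 56.7, 59.1 and 56 after Si-FIBP#1, and 69.9, 72.8 and 64.3 after Si-FIBP#2. Its groups were separate too, with falls of 0.74 and 0.48 (limma adjusted p = 1e-05 and 0.00016). *CENPS* averaged 21.3 FPKM in Scramble, 16.3 FPKM after Si-FIBP#1 and 20 FPKM after Si-FIBP#2, and passed after Si-FIBP#1 alone (limma adjusted p = 0.0396 and 0.596). This was lost on leaving out any 1 Scramble sample or Si-FIBP#1 replicate 1 or 2 (limma adjusted p from 0.0562 to 0.119). *CENPS* also shares 1126 nt of exon with the read-through gene *CENPS-CORT*, listed at 1.17 to 4.32 FPKM. *CENPT* averaged 21.4 FPKM in Scramble, 19.4 FPKM after Si-FIBP#1 and 20.7 FPKM after Si-FIBP#2. It did not pass (limma adjusted p = 0.264 and 0.73), with 95% intervals of its log2 fold change from -0.32 to 0.07 and from -0.23 to 0.15. After Si-FIBP#1 *CENPT* stood at -0.03 without Scramble replicate 1, at -0.19 without Scramble replicate 3 and at -0.20 under the median-ratio scaling, where it did not pass either.

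All 12 outer kinetochore genes fell with both siRNAs by the adjusted p (19.9% and 17.7% of all tested genes). Called lower were 8 after Si-FIBP#1 (3.11% of all tested genes) and 5 after Si-FIBP#2 (2.13%). The median log2 fold changes were -1.25 and -0.82. The NDC80 complex, the main microtubule-binding unit, fell in all 4 subunits. *NDC80* measured 77.9, 74 and 80.05 FPKM in Scramble, 24.4, 25 and 26.8 after Si-FIBP#1, and 40.8, 33.1 and 38.5 after Si-FIBP#2. *NUF2* measured 40.9, 42.8 and 43.2 FPKM in Scramble, 10.7, 12.7 and 12.7 after Si-FIBP#1, and 16, 16.2 and 14.9 after Si-FIBP#2. *SPC25* measured 41, 42.8 and 43.2 FPKM in Scramble, 11, 11 and 13.8 after Si-FIBP#1, and 18.6, 16.3 and 16.4 after Si-FIBP#2. In all 3 genes the groups were in the same order, with Scramble highest, Si-FIBP#2 next and Si-FIBP#1 lowest, without overlap. *NDC80* fell by 1.57 ± 0.078 (SE, log2) after Si-FIBP#1 (limma adjusted p = 7.9e-07) and by 1.03 ± 0.078 after Si-FIBP#2 (limma adjusted p = 8.9e-06). *NUF2* fell by 1.73 ± 0.075 (SE, log2) after Si-FIBP#1 (limma adjusted p = 4.4e-07) and by 1.38 ± 0.075 after Si-FIBP#2 (limma adjusted p = 1.5e-06). *SPC25* fell by 1.75 ± 0.092 (SE, log2) after Si-FIBP#1 (limma adjusted p = 1e-06) and by 1.26 ± 0.092 after Si-FIBP#2 (limma adjusted p = 7e-06). *SPC24*, the remaining subunit, measured 23.8, 25.2 and 26.2 FPKM in Scramble, 10.6, 12.3 and 10.5 after Si-FIBP#1, and 14.1, 12.8 and 14.2 after Si-FIBP#2. It fell by 1.1 and 0.83 on the log2 scale, less than its partners after Si-FIBP#1, and was called after Si-FIBP#1 alone.

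The MIS12 complex, which joins the inner kinetochore to NDC80 and KNL1, has 4 subunits among the members. *DSN1* fell to 51.5% and 55.1% of Scramble. Its partners *MIS12*, *NSL1* and *PMF1* remained at 80.6%, 77.2% and 83.4% of Scramble after Si-FIBP#1 and at 83%, 82.9% and 89.4% after Si-FIBP#2. These small falls passed the test (limma adjusted p from 0.00275 to 0.00705 after Si-FIBP#1 and from 0.0142 to 0.0287 after Si-FIBP#2) but after Si-FIBP#2 they were lost without Scramble replicate 2 or Si-FIBP#2 replicate 1 for *NSL1* (limma adjusted p = 0.0697 and 0.0647) and without either of these, Scramble replicate 1 or Si-FIBP#2 replicate 3 for *PMF1* (from 0.0677 to 0.0846). After Si-FIBP#2 *MIS12* fell by 0.43 in place of 0.24 (log2) with Ensembl models alone, and *PMF1* by 0.28 in place of 0.16 with the median-ratio scaling. *PMF1* shares exons with the read-through gene *PMF1-BGLAP*, listed at 4.48 to 8.53 FPKM. *KNL1*, the scaffold that recruits the BUB proteins, measured 20.04, 19.6 and 19.7 FPKM in Scramble, 6.66, 8.07 and 9.54 after Si-FIBP#1, and 10.9, 10.2 and 12 after Si-FIBP#2. *ZWINT*, its partner, measured 111, 103 and 101 FPKM in Scramble, 41.1, 40.4 and 44.9 after Si-FIBP#1, and 60.8, 53.7 and 62.2 after Si-FIBP#2. In both genes the Si-FIBP#2 samples lay between the other groups. *KNL1* fell by 1.21 and 0.79 on the log2 scale and *ZWINT* by 1.3 and 0.82, and both were called after Si-FIBP#1 alone. *SKA1* and *SKA3*, the members from the SKA complex, which helps kinetochores hold on to microtubule ends, were called with both siRNAs. *SKA1* measured 17.2, 16.7 and 19.9 FPKM in Scramble, 5.46, 5.35 and 6.55 after Si-FIBP#1, and 6.43, 6.27 and 6.14 after Si-FIBP#2. *SKA3* measured 17.1, 14.7 and 14.9 FPKM in Scramble, 5.3, 4.52 and 5.33 after Si-FIBP#1, and 7.14, 6.09 and 7.42 after Si-FIBP#2. The 6 depleted samples of *SKA1* and of *SKA3* lay far below Scramble. *SKA1* fell by 1.48 ± 0.093 (SE, log2) after Si-FIBP#1 (limma adjusted p = 2.5e-06) and by 1.38 ± 0.093 after Si-FIBP#2 (limma adjusted p = 4.3e-06), and *SKA3* fell by 1.45 ± 0.099 (SE, log2) after Si-FIBP#1 (limma adjusted p = 3.9e-06) and by 1.07 ± 0.099 after Si-FIBP#2 (limma adjusted p = 2.7e-05).

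Of the 11 checkpoint and corona genes, 6 were called lower with each siRNA (3.11% and 2.13% of all tested genes). The median log2 fold changes were -1.07 and -1.1. *TTK*, the kinase at the top of the checkpoint, measured 42.8, 42.7 and 44 FPKM in Scramble, 10.6, 9.2 and 13.4 after Si-FIBP#1, and 17, 13 and 21.2 after Si-FIBP#2. *BUB1*, the kinase that protects centromeric cohesion and recruits checkpoint proteins, measured 74.9, 73.5 and 80.5 FPKM in Scramble, 24.3, 24.4 and 27 after Si-FIBP#1, and 37.2, 31.9 and 36.1 after Si-FIBP#2. *BUB1B*, a part of the mitotic checkpoint complex that inhibits the anaphase-promoting complex, measured 52.9, 51.5 and 58.5 FPKM in Scramble, 19.1, 20.6 and 19 after Si-FIBP#1, and 22.7, 22.4 and 27.8 after Si-FIBP#2. Each was below all Scramble samples in all 6 depleted samples. *TTK* had the largest fall of any member after Si-FIBP#1 by the sum of all models, while *CENPB* stood at -2.23 with Ensembl models alone. *TTK* fell by 1.89 ± 0.16 (SE, log2) after Si-FIBP#1 (limma adjusted p = 1.6e-05) and by 1.31 ± 0.16 after Si-FIBP#2 (limma adjusted p = 0.00016). *BUB1* fell by 1.56 ± 0.073 (SE, log2) after Si-FIBP#1 (limma adjusted p = 6.5e-07) and by 1.1 ± 0.073 after Si-FIBP#2 (limma adjusted p = 4e-06). *BUB1B* fell by 1.43 ± 0.089 (SE, log2) after Si-FIBP#1 (limma adjusted p = 2.5e-06) and by 1.13 ± 0.089 after Si-FIBP#2 (limma adjusted p = 1e-05). *MAD2L1*, which encodes the MAD2 protein that captures CDC20, measured 28.1, 31.9 and 30.7 FPKM in Scramble, 8.18, 11 and 12.7 after Si-FIBP#1, and 14.9, 11.4 and 12.9 after Si-FIBP#2. The depleted groups overlapped each other and not Scramble. It fell by 1.44 ± 0.14 (SE, log2) after Si-FIBP#1 (limma adjusted p = 3.8e-05) and by 1.15 ± 0.14 after Si-FIBP#2 (limma adjusted p = 0.00016).

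*BUB3* and *MAD1L1* complete the checkpoint core. *BUB3*, which encodes a partner of both BUB1 and BUB1B, averaged 136 ± 2.3 FPKM in Scramble, 105 ± 8.83 FPKM after Si-FIBP#1 and 106 ± 3.09 FPKM after Si-FIBP#2 (SD, n = 3). It fell to 77.5% and 78.1% of Scramble (limma adjusted p = 0.0009 and 0.00114), where *BUB1* fell to 33.1% and 46% and *BUB1B* to 36% and 44.7%. *MAD1L1*, which encodes MAD1, had the largest SE of the members (0.27, log2), measuring 12.9, 13.6 and 16.8 FPKM in Scramble, 8.23, 11.9 and 6.82 FPKM after Si-FIBP#1 and 8.19, 3.9 and 9.07 FPKM after Si-FIBP#2. It was lower in all 6 depleted samples, yet passed after Si-FIBP#2 alone (limma adjusted p = 0.0708 and 0.0121). Without Si-FIBP#1 replicate 2 or Si-FIBP#2 replicate 2 it passed after Si-FIBP#1 too (limma adjusted p = 0.0381 and 0.0143), as it did with only the groups compared in the fit (0.0221). Transcript models under 500 nt made up 28.9% of its FPKM in Scramble, and without such models it fell by 0.53 after Si-FIBP#1 and by 1.07 after Si-FIBP#2 (limma adjusted p = 0.00909 and 0.0001), past 2-fold in the latter, an alternative chosen after the data were seen.

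Among the corona proteins, *CENPF*, a large protein that accumulates in G2, measured 67.8, 60.9 and 65.6 FPKM in Scramble, 18.6, 19.9 and 21.5 after Si-FIBP#1, and 27.7, 26.9 and 33.3 after Si-FIBP#2. *SPDL1*, which encodes Spindly, the dynein adaptor at kinetochores, measured 105, 101 and 102 FPKM in Scramble, 49.4, 45.4 and 50.03 after Si-FIBP#1, and 41.6, 36.8 and 39.2 after Si-FIBP#2. *CENPF* samples after Si-FIBP#2 lay between the other groups, whereas in *SPDL1* they lay below both. *CENPF* fell by 1.65 ± 0.089 (SE, log2) after Si-FIBP#1 (limma adjusted p = 1.1e-06) and by 1.12 ± 0.089 after Si-FIBP#2 (limma adjusted p = 1.2e-05). *SPDL1* fell by 1.07 ± 0.06 (SE, log2) after Si-FIBP#1 (limma adjusted p = 1.3e-06) and by 1.37 ± 0.06 after Si-FIBP#2 (limma adjusted p = 6.7e-07). *CENPE*, a kinesin that moves chromosomes to the spindle equator, measured 11.3, 11.1 and 11.5 FPKM in Scramble, 5.09, 5.44 and 5.71 after Si-FIBP#1, and 6.65, 10.7 and 7.0 after Si-FIBP#2. Si-FIBP#2 replicate 2 was nearly as high as Scramble. There a model of 291 nt, ENST00000515478, was listed at 4.11 FPKM, and it was at 0 in the other 8 samples. *CENPE* fell by 0.94 after Si-FIBP#1 and by 0.46 after Si-FIBP#2 (limma adjusted p = 0.00052 and 0.0233). Without any 1 Scramble sample or Si-FIBP#2 replicate 1 or 3 the latter did not pass (limma adjusted p from 0.0522 to 0.0814). With Ensembl models alone, that of 291 nt among them, it turned to 0.12 (limma adjusted p = 0.753). Without models under 500 nt it fell by 0.67 after Si-FIBP#2 (limma adjusted p = 2.6e-05). *ZW10* and *ZWILCH*, of the complex that brings dynein to kinetochores, fell by 0.25 and 0.54 on the log2 scale after Si-FIBP#1, while after Si-FIBP#2 *ZWILCH* fell by 0.69 and *ZW10* did not pass (log2 fold change -0.22, limma adjusted p = 0.0513). The fall of *ZW10* after Si-FIBP#1 did not pass without Scramble replicate 3 or Si-FIBP#1 replicate 1 or 3 (limma adjusted p from 0.0729 to 0.109), nor with no filter (0.0562). After Si-FIBP#2 *ZW10* passed under 6 alternatives (limma adjusted p from 0.0096 to 0.048), namely the median-ratio scaling (log2 fold change -0.33), the filter of 5 FPKM, the fit of the compared groups alone, transcripts of at least 500 nt, and without Si-FIBP#1 replicate 1 or 2.

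Of the other genes that bear CENP names, *CENPJ*, a centriole assembly factor, fell from 6 FPKM to 3.15 and 3.26 FPKM. *CENPV*, named for a role in centromere organisation, fell from 42.4 FPKM to 27.2 and 30 FPKM. Both passed the adjusted p with both siRNAs and neither was called.

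A further 17 genes of the same pathway that are not members were examined as a list, chosen like the members with earlier results of these data known. With Si-FIBP#1, 16 of 17 fell by the adjusted p (19.9% of all tested genes) and 10 were called lower (3.11%). After Si-FIBP#2, 15 fell (17.7% of all tested genes) and 8 were called lower (2.13%). By the adjusted p 0 were higher in either, where 27.8% and 31.1% of all tested genes were, and 0 at an unadjusted p below 0.05. The median log2 fold changes of the 17 were -1.09 and -0.93. *SPAG5* (astrin, log2 fold changes -2.16 and -1.6), *ESPL1* (separase, -2.02 and -1.5) and *CDC20*, the target of the checkpoint (-1.88 and -1.52), had the lowest values. *MAD2L1BP*, which encodes a protein that takes MAD2 off its partners, did not pass (0.07 and -0.21), and *ITGB3BP* (CENP-R) passed after Si-FIBP#1 alone (-0.29 and -0.13).

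The size of the fall was compared between the siRNAs in the same fit. Levels after Si-FIBP#2 were above those after Si-FIBP#1 in 18 members at an adjusted p below 0.05, where 9.58% of all tested genes were, and below in 2 members, where 5.8% were. In sign, 38 of 43 differences (88.4%) were positive, with a median of 0.26, where 57.4% of all tested genes were positive, with a median of 0.04. The largest positive differences were those of *CENPW* (0.65 ± 0.08, SE, limma adjusted p = 0.00118), *HJURP* (0.65 ± 0.13, limma adjusted p = 0.0104) and *TTK* (0.57 ± 0.16, limma adjusted p = 0.0427, and 0.0888 with only the groups compared in the fit). *CENPE* differed by 0.48, by 0.29 without Si-FIBP#2 replicate 2 (limma adjusted p = 0.0324) and by 0.92 with Ensembl models alone (limma adjusted p = 0.0538). The Ensembl models of *CENPE* include that of 291 nt, listed at 4.11 FPKM in Si-FIBP#2 replicate 2 and at 0 in all other samples. *CENPQ* went the other way by -1.08 ± 0.14 (limma adjusted p = 0.0016) and *SPDL1* by -0.29 ± 0.06 (limma adjusted p = 0.0115). *FIBP* itself differed by 0.13 with a 95% interval from -0.28 to 0.54 (limma adjusted p = 0.686). *MKI67* differed by 0.53 (limma adjusted p = 0.0124) and *PCNA* by 0.25 (limma adjusted p = 0.0233), beside *TOP2A* by 0.20 and *MCM2* by 0.03, which did not pass (limma adjusted p = 0.157 and 0.819). The part of proliferation in these differences was not tested. *CENPK*, *CENPL*, *BUB3*, *SKA1* and *DSN1* did not pass, with 95% intervals from -0.16 to 0.24, from -0.28 to 0.33, from -0.12 to 0.15, from -0.10 to 0.31 and from -0.09 to 0.28. The count of 20 members was 11 when only the groups compared entered the fit, and 10 to 22 on leaving out 1 sample, lowest without Si-FIBP#1 replicate 1. Under every alternative run, 10 of the 20 still passed, namely *CENPF*, *CENPQ*, *CENPW*, *HJURP*, *NDC80*, *NUF2*, *SPC25*, *ZWINT*, *BUB1* and *SPDL1*.

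**Figure D4:**
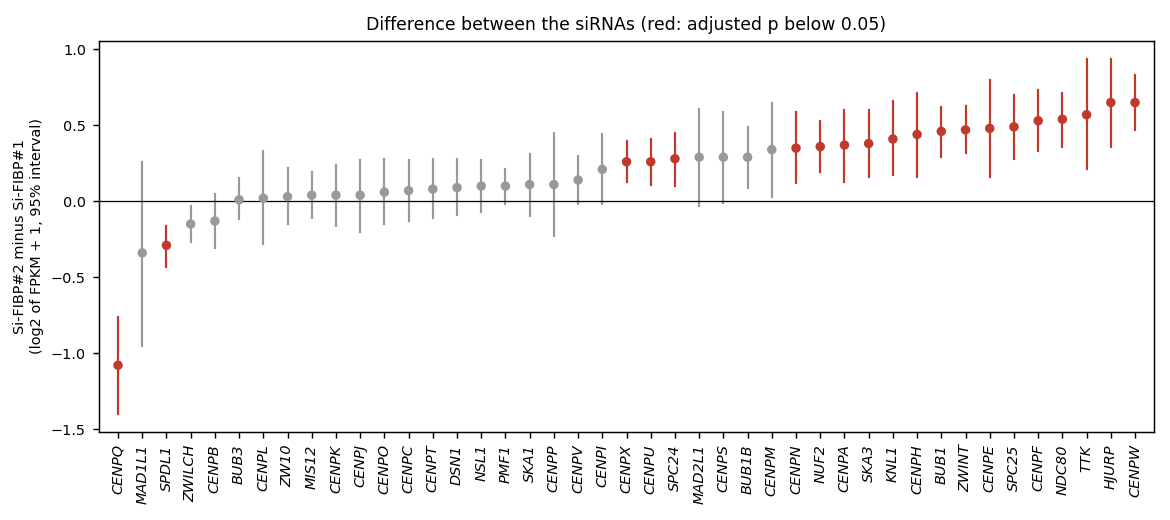
Difference between Si-FIBP#2 and Si-FIBP#1 in log2(FPKM + 1) for each of the 43 genes, ordered by size, with 95% intervals from limma (red, adjusted p below 0.05; grey, not passed). *CENPQ* stands alone at -1.08 at the left, and 18 genes at the right lie above 0 in red, up to 0.65 for *CENPW* and *HJURP*.

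The tables list 411 transcript models of the members, of which 174 passed the filter and were tested among 47662 transcripts. With Si-FIBP#1, 57 of 174 were called lower, where 2.99% of all tested transcripts were, in 28 genes. With Si-FIBP#2, 45 were called lower, where 2.26% were, in 25 genes. How many of all tested genes held a transcript called lower was not counted. A single leading model made up at least 50% of the gene in Scramble in 25 members, as for *BUB1*, where ENST00000302759 held 87.4% of the FPKM in Scramble, 87.9% after Si-FIBP#1 and 87.3% after Si-FIBP#2. In *CENPQ*, ENST00000335783 carried 81.3% of the Scramble level and fell from 12.4 FPKM to 6.65 and 2.85 FPKM, so that the difference between the siRNAs was seen in this model too (-1.0, limma adjusted p = 0.0135).

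Values of single models are given for 4 members in which the models differed in whether they passed. In *CENPX*, ENST00000392359 fell from 25.6 FPKM to 7.79 and 15.1 FPKM (limma adjusted p = 7.4e-05 and 0.00381). ENST00000306704 of the same gene stood at 40.8 FPKM against 32.8 and 35.4 FPKM and did not pass (limma adjusted p = 0.118 and 0.279). In *CENPB*, the Ensembl model ENST00000379751 fell from 14 FPKM to 2.31 FPKM after Si-FIBP#1 (limma adjusted p = 0.0299) and stood at 3.52 FPKM after Si-FIBP#2 (limma adjusted p = 0.0579). The assembled model MSTRG.16565.1 of *CENPB* averaged 17.7, 16.9 and 13.9 FPKM and did not pass. In *CENPE*, the assembled model MSTRG.20363.1 fell from 5.3 FPKM to 1.5 FPKM after Si-FIBP#1 (limma adjusted p = 0.00211) and stood at 2.98 FPKM after Si-FIBP#2 (limma adjusted p = 0.05), whereas MSTRG.20363.3 fell from 2.39 FPKM to 0.767 FPKM after Si-FIBP#2 (limma adjusted p = 0.0223) and stood at 2.26 FPKM after Si-FIBP#1 (log2 fold change -0.04, limma adjusted p = 0.917). Their differences between the siRNAs did not pass (limma adjusted p = 0.117 and 0.0864). In *CENPP*, the model of 570 nt, ENST00000618653, was the only member transcript called higher, from 0.59 to 2.57 FPKM after Si-FIBP#2 (1.17, limma adjusted p = 0.0363). The share of all tested transcripts called higher was not computed. The full-length *CENPP* model ENST00000375587, of 8293 nt, averaged 1.08 FPKM in Scramble, 0.737 FPKM after Si-FIBP#1 and 0.793 FPKM after Si-FIBP#2 and did not pass. The higher sum of *CENPP* thus lay in the short model. How the authors' software split reads between such overlapping models limits these values, and it was not tested.

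**Figure D5:**
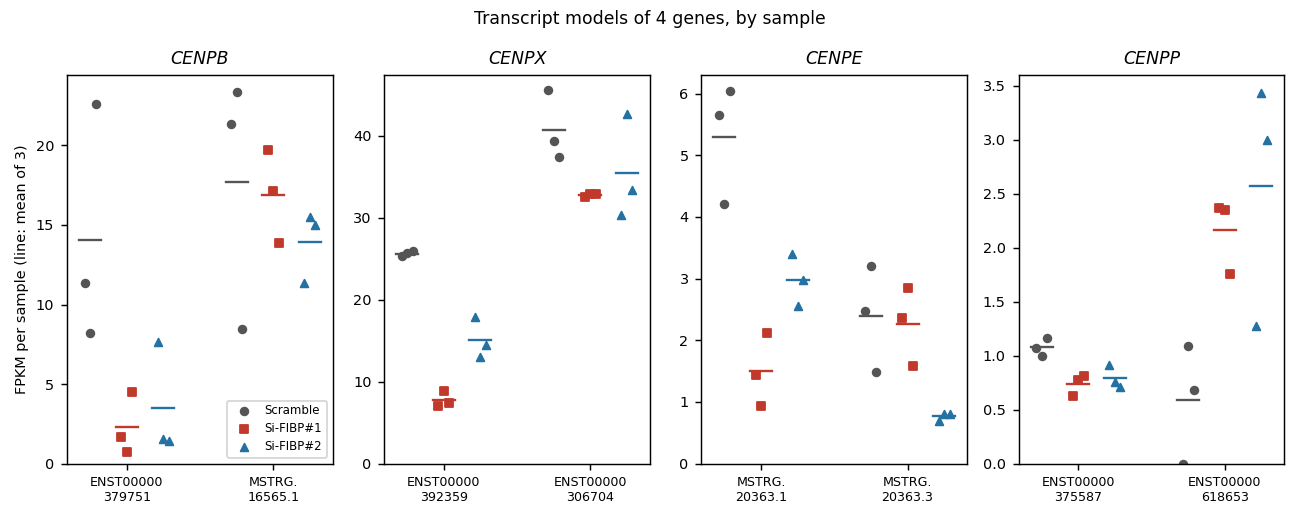
FPKM of a pair of transcript models in each of *CENPB*, *CENPX*, *CENPE* and *CENPP* in the 9 samples (grey circles, Scramble; red squares, Si-FIBP#1; blue triangles, Si-FIBP#2; lines, means of 3 samples; axes start at 0). ENST00000392359 of *CENPX* separates the 3 groups, while its neighbour ENST00000306704 does not, and ENST00000618653 of *CENPP* is the 1 model called higher after Si-FIBP#2. The share of all tested transcripts called higher was not computed.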

How the data were processed

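Poly(A)-selected RNA of 3 Scramble, 3 Si-FIBP#1 and 3 Si-FIBP#2 samples of H1299 was sequenced with paired-end reads. The design text of the series calls the samples independent without naming separate cultures or transfections, so p-values measure only the spread between these samples, which may be technical. Each sample has 1 table, in which the authors deposited FPKM values rounded to 2 decimals for Ensembl and assembled transcripts. The submitters' processing notes name HISAT2 and StringTie, and the unit was inferred from the values. The annotation, genome build and strand setting are not given in the sources used here. Columns of gene annotation in the tables were not used.

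FPKM were summed over the transcripts of each gene identifier. A gene entered the test if 3 or more samples reached 1 FPKM. The fit used limma 3.58.1 (R 4.3.3) and its mean-variance trend on log2(FPKM + 1), all 9 samples in 1 fit and Benjamini-Hochberg adjustment over 14985 genes. A fold change on this scale understates that of low genes. Transcripts were tested in the same way. The text names every member and gives values in every sample for *FIBP*, members called with both siRNAs, the largest rise and members that differed between the siRNAs. The members and lists were chosen with earlier results of these data known. Replicate numbers were not treated as pairing the samples. Steps were tested on simulated data. A cell type marker of the fixed list is not reported here.

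Depth was estimated from the step in FPKM that 1 fragment is worth in genes with a single transcript. Low values gave a mean cosine of 0.758 to 0.815 (1 where all are whole), so no counts were recovered and no count test was run. The estimate covers depth only, and precision was judged by the SD and SE over samples. Promoter windows come from RefSeq (GRCh38.p14) and exon overlaps from GENCODE release 29, which may differ from the annotation the authors used. The alternatives were TPM or median-ratio scaling, a pseudocount of 0.1, no filter, a limit of 5 FPKM, a fit of the compared groups alone, Ensembl transcripts alone, the replicate number as a block, leaving out each sample in turn and, chosen after seeing the data, transcripts of at least 500 nt. Python 3.11.15 served for tables and plots, with pandas 2.3.3, numpy 2.4.6 and matplotlib 3.10.9.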

Additional observations from a re-analysis of the deposited data

Results flagged for a closer look

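The effect of the siRNAs on 20 of the 43 members differed between Si-FIBP#1 and Si-FIBP#2 in a test of the difference itself (limma, adjusted p below 0.05 over all tested genes). With Si-FIBP#2, 18 members were higher and 2 lower, where 9.58% and 5.8% of all tested genes were. Under every alternative run, 10 of the 20 still passed. Over the 18 alternatives, the difference was lost under 13 for *CENPA* and *CENPN*, 12 for *CENPE*, and 11 for *SPC24* and *TTK*. It was lost under 10 for *KNL1* and *CENPH*, 6 for *CENPU* and *SKA3*, and 3 for *CENPX*. The log2 differences (Si-FIBP#2 minus Si-FIBP#1) that lay below 0 were -1.08 for *CENPQ* and -0.29 for *SPDL1*. In centromeric chromatin and the constitutive centromere-associated network, they were 0.37 for *CENPA*, 0.65 for *HJURP*, 0.44 for *CENPH*, 0.35 for *CENPN*, 0.26 for *CENPU*, 0.65 for *CENPW* and 0.26 for *CENPX*. In the outer kinetochore, they were 0.54 for *NDC80*, 0.36 for *NUF2*, 0.28 for *SPC24*, 0.49 for *SPC25*, 0.41 for *KNL1*, 0.47 for *ZWINT* and 0.38 for *SKA3*. In the checkpoint and corona layer, they were 0.46 for *BUB1*, 0.57 for *TTK*, 0.48 for *CENPE* and 0.53 for *CENPF*. *FIBP* itself differed by 0.13 (95% interval -0.28 to 0.54). *MKI67* differed by 0.53 and *PCNA* by 0.25, while *TOP2A* (0.20) and *MCM2* (0.03) did not pass (limma adjusted p = 0.157 and 0.819). The part of proliferation in these differences was not tested.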

How the results depend on the processing

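Across 18 alternatives, the number of members called lower ranged from 22 to 25 (Si-FIBP#1) and from 15 to 21 (Si-FIBP#2). Of 108 values of the members and *FIBP* that were recomputed, 21 changed side of an adjusted p of 0.05 or direction under at least 1 alternative. Crossing the 2-fold limit did not enter this count, as for *CENPL* after Si-FIBP#1 (-0.96, and -1.06 with a pseudocount of 0.1). The median with Si-FIBP#2 moved to -0.99 under the median-ratio scaling. The count of members higher by the adjusted p became 1 with Si-FIBP#1 for only the groups compared, Ensembl transcripts alone or the replicate block. With Si-FIBP#2 it became 0 under the median-ratio scaling or no filter. It was also 0 with the filter of 5 FPKM, which *CENPP* did not pass, so that it was not tested there. On leaving out 1 sample, both counts ran from 0 to 1. In each case the member was *CENPP*. The 20 members differing between the siRNAs became 12 with no filter, 11 with only the groups compared, 13 with Ensembl transcripts alone and 10 to 22 on leaving out 1 sample. A filter of 5 FPKM left 35 and 27 member transcripts called lower, as fewer were tested. *CENPE* turned to 0.12 with Si-FIBP#2 for Ensembl transcripts alone, which leave out the assembled models that hold most of its FPKM in Scramble. They include the model of 291 nt, ENST00000515478, listed at 4.11 FPKM in Si-FIBP#2 replicate 2 and at 0 in all other samples. The Ensembl model ENST00000380026 of *CENPE* averaged 2.99 FPKM in Scramble and 2.47 FPKM after Si-FIBP#2. On leaving out 1 sample, *CENPS* with Si-FIBP#2 ran from -0.17 to 0.02 (without Si-FIBP#2 replicate 3), and *CENPT* with Si-FIBP#2 from -0.11 to 0.05 (without Scramble replicate 1). The cause of these changes was not tested.

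Replicate numbers gave correlations of deviations from -0.0568 to 0.103 over 9 same-number pairs, 1 of them above 0.1. Pairs of different numbers ran from -0.142 to 0.049. The numbers were not treated as pairing the samples, which does not exclude a weak pairing. With the replicate block, 22 and 17 members were called lower and 17 differed between the siRNAs, and *CENPS* did not pass with Si-FIBP#1 (limma adjusted p = 0.0613). FPKM carry no counting interval, and members under 10 FPKM and models under 500 nt are the least precise.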
